A study of Mus musculus with 6 samples.

Results

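The miR-183 cluster, which holds miR-183, miR-96 and miR-182, was followed in small extracellular vesicles (sEV) released by cochlear explants with and without cisplatin. Its members were chosen by name as both arms of the hairpins mir-183, mir-96 and mir-182, which gave 6 mature miRNAs of the 810 in the count table. The explants were the sensory epithelium of ICR mice at postnatal day 3, with the spiral ganglion removed, kept in medium with serum depleted of sEV. Cis-sEV came from explants given 50 µM cisplatin, a platinum drug toxic to hair cells, and Ctrl-sEV from explants given PBS, both over 48 h. Each of the 3 libraries per group pooled the sEV of about 80 explants and was labelled a biological replicate, so p-values measure the spread between such pools.

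A miRNA hairpin is cut into a duplex of a 5p and a 3p arm, of which one is usually loaded into an Argonaute protein while the other is degraded, and the loaded arm finds its targets mainly through its seed, bases 2 to 8. The 3 hairpins of this cluster are transcribed as a single primary transcript and are known for their high expression in mechanosensory hair cells, photoreceptors and other sensory cells. Changes in the seed of miR-96 cause hearing loss in mice and people. miRNAs are also packed into sEV, small membrane vesicles that cells release into their surroundings.

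The hairpins lie on the minus strand of chromosome 6 in GRCm38.p6, the build the authors aligned to, with Mir183 at chr6:30169668-30169737, Mir96 at chr6:30169446-30169551 and Mir182 at chr6:30165918-30165992. Mir183 and Mir96 are 116 bp apart and Mir182 follows after 3453 bp, so that the locus spans 3820 bp. No gene other than the 3 hairpins overlaps this span in GENCODE release M21. Near it are annotated the long noncoding RNA Rncr4 at 3156 bp, the transcription factor gene Nrf1 at 12460 bp, the small RNA gene Gm25580 at 21791 bp and the ubiquitin-conjugating enzyme gene Ube2h at 41552 bp.

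The 6 mature sequences, as RefSeq gives them for this build, are shown 5′ to 3′ because the 5p arms are close relatives whose levels moved apart below. Capitals mark the seed.
mmu-miR-183-5p: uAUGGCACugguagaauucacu
mmu-miR-96-5p: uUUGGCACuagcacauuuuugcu
mmu-miR-182-5p: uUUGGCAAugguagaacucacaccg
mmu-miR-183-3p: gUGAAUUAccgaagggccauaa
mmu-miR-96-3p: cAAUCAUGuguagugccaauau
mmu-miR-182-3p: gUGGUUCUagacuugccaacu
The seed of miR-96-5p differs from that of miR-183-5p at 1 base of 7 and from that of miR-182-5p at 1 base, while miR-183-5p and miR-182-5p differ at 2. The seeds of the 3p arms differ from each other at 4 to 7 of 7 bases. No other miRNA of the count table shares a seed with a member.

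The hairpins show where each arm sits, with both mature arms in capitals.
mir-183: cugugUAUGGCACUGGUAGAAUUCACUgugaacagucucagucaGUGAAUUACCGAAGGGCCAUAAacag
mir-96: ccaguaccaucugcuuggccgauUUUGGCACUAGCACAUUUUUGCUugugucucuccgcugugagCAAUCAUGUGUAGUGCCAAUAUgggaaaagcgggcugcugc
mir-182: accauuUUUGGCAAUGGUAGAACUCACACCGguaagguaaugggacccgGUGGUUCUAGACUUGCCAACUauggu

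The Cis-sEV libraries held 1722359 to 1794175 miRNA reads and the Ctrl-sEV libraries 528952 to 718597. Levels are given as CPM, the usual scaling of reads by the miRNA total of their library, and a library with 0 reads could hold up to 1.67 to 1.74 CPM if from Cis-sEV, or 4.17 to 5.67 CPM if from Ctrl-sEV, the level of 3 reads. PCR copies of a molecule were not told apart, so such limits and the intervals below cover counting error only. Pairs of libraries of a group differed by 66.3 to 115 times the sampling noise of reads (chi-square per degree of freedom). In Ctrl-sEV few miRNAs had a middling count: 11 to 20 miRNAs per library had 9 to 31 reads, against 159 to 166 in Cis-sEV, while 199 to 210 and 302 to 319 had 32 or more. Counts in sEV RNA cannot tell fewer vesicles of a cell type from fewer copies per vesicle.

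All 3 main arms of the cluster were abundant in both groups. miR-183-5p led, on rank 7 of 810 in Cis-sEV and rank 5 in Ctrl-sEV by mean CPM. miR-182-5p was on ranks 22 and 21, and miR-96-5p on ranks 24 and 40. Together the 6 arms held 8.16%, 6.33% and 5.91% of all miRNA counts in Cis-sEV 1, 2 and 3 and 5.57%, 5.59% and 5.50% in Ctrl-sEV 1, 2 and 3, the order used for all values below. Every Cis-sEV library was above every Ctrl-sEV library, by 1.25 percentage points in the mean, with an exact two-sided permutation p of 0.1, the smallest that 3 against 3 libraries allow. Without Cis-sEV 1 the difference was 0.567 percentage points. After TMM scaling the summed level was 73446, 57640 and 50091 CPM with cisplatin against 73188, 56059 and 60028 CPM without, and the groups overlapped. With the reads of miR-204-5p left out of the total, the groups overlapped (p = 0.9 in the same exact test). miR-204-5p was the most abundant miRNA in Ctrl-sEV and was lower in Cis-sEV (log2 fold change -1.93, SE 0.23, edgeR adjusted p = 0.00502).

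**Figure D1:**
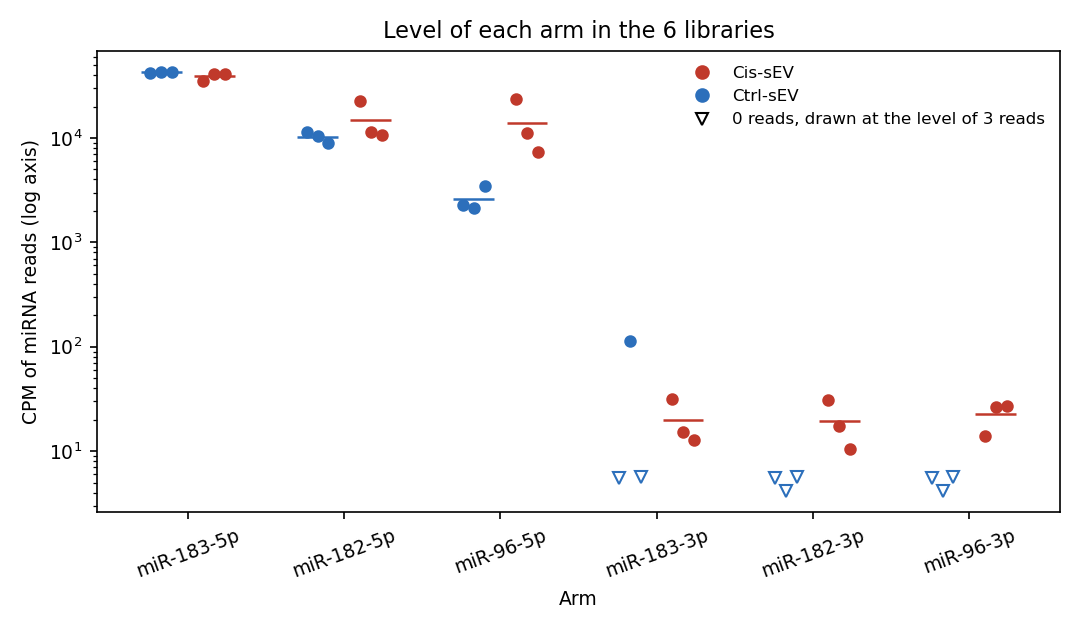
Level of each arm in CPM (log axis) in the 3 Ctrl-sEV (blue) and 3 Cis-sEV (red) libraries, with the mean as a bar where no library was at 0. Open triangles are libraries with 0 reads, drawn at the level of 3 reads. The miR-96-5p points of Cis-sEV (7279 to 23793 CPM) lie above those of Ctrl-sEV (2144 to 3471 CPM), and the 3p arms lie far below the 5p arms.

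miR-96-5p, the member whose seed changes cause deafness, was higher in Cis-sEV. With cisplatin there were 42622, 19052 and 13060 reads of it, or 23793, 11062 and 7279 CPM. In the Ctrl-sEV libraries it had 1225, 1541 and 1836 reads, or 2269, 2144 and 3471 CPM. Every Cis-sEV library exceeded every Ctrl-sEV library, and Cis-sEV 1 stood apart from the other 2 Cis-sEV libraries. The means of Cis-sEV and Ctrl-sEV were 14045 ± 8651 and 2628 ± 732 CPM (SD, n = 3 each), a ratio of 5.34, or of 4.22 after scaling by TMM factors. The log2 fold change was 2.08 (SE 0.47, edgeR adjusted p = 0.0142), and without Cis-sEV 1 it was 1.34, with an adjusted p of 0.0276. The adjusted p rose to 0.0554 without Ctrl-sEV 1 and to 0.0555 without Ctrl-sEV 2, at log2 fold changes of 2.00 and 1.96.

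miR-182-5p, which differs from miR-96-5p by a single seed base, did not separate the groups. Its Cis-sEV libraries held 40430, 19765 and 19088 reads, or 22569, 11476 and 10639 CPM. Its Ctrl-sEV libraries held 6152, 7560 and 4703 reads, or 11397, 10520 and 8891 CPM. Cis-sEV 1 was again the highest library, and the other 2 Cis-sEV libraries lay near the Ctrl-sEV libraries. The log2 fold change was 0.18 (SE 0.34, edgeR adjusted p = 0.782), and its sign turned without Cis-sEV 1 (-0.40) and with upper-quartile scaling (-0.05).

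miR-183-5p, the most abundant arm, was slightly lower in Cis-sEV. It had 62990, 70024 and 73839 reads there, or 35163, 40656 and 41155 CPM. In Ctrl-sEV it had 22696, 30966 and 22545 reads, or 42046, 43092 and 42622 CPM. All Cis-sEV libraries lay below all Ctrl-sEV libraries, with Cis-sEV 1 the lowest, and the means were 38991 ± 3325 and 42587 ± 524 CPM. The log2 fold change of -0.49 (SE 0.15, edgeR adjusted p = 0.0419) passed the limit on p but not the limit of 1 on its size, so miR-183-5p was not called. With libraries scaled by their totals alone it was -0.13, with an adjusted p of 0.427, and the adjusted p was 0.138 without Cis-sEV 1 and 0.202 without Cis-sEV 3.

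miR-96-5p and miR-182-5p shared the library that stood apart. Of the miRNAs with at least 100 CPM in Cis-sEV, 8 (4.40%) were over 1.5 times higher in Cis-sEV 1 than in both other Cis-sEV libraries, and these 2 were among them. The same count was 2 for Cis-sEV 2 and 3 for Cis-sEV 3, with no member in either.

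In the order of mean levels, miR-183-5p in Cis-sEV stood between miR-26a-5p (40221 ± 1334 CPM) and miR-429-3p (38393 ± 874 CPM), and both overlapped it. In Ctrl-sEV it stood below miR-181a-5p (51063 ± 3846 CPM), whose libraries were all higher, and above let-7f-5p (38070 ± 5409 CPM), which overlapped it. The neighbours of miR-96-5p and miR-182-5p in both groups overlapped them. These orders are of reads, since ligation to adapters differs between miRNA sequences.

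The 5p arms, which come from a single transcript, did not keep their proportions, as tested for the locus after these values. Of the reads of the 3 arms, miR-183-5p made up 43.1%, 64.3% and 69.7% with cisplatin against 75.5%, 77.3% and 77.5% without. miR-96-5p made up 29.2%, 17.5% and 12.3% in Cis-sEV and 4.07%, 3.85% and 6.31% in Ctrl-sEV. miR-182-5p made up 27.7%, 18.2% and 18.0% against 20.5%, 18.9% and 16.2%. The groups were apart for miR-183-5p and miR-96-5p and overlapped for miR-182-5p. Within the 6 arms, exact permutation p-values were 0.1, 0.1 and 0.7 for miR-183-5p, miR-96-5p and miR-182-5p, where 0.1 is the smallest possible. These shares compare arms inside a library and do not depend on the scaling between libraries.

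**Figure D2:**
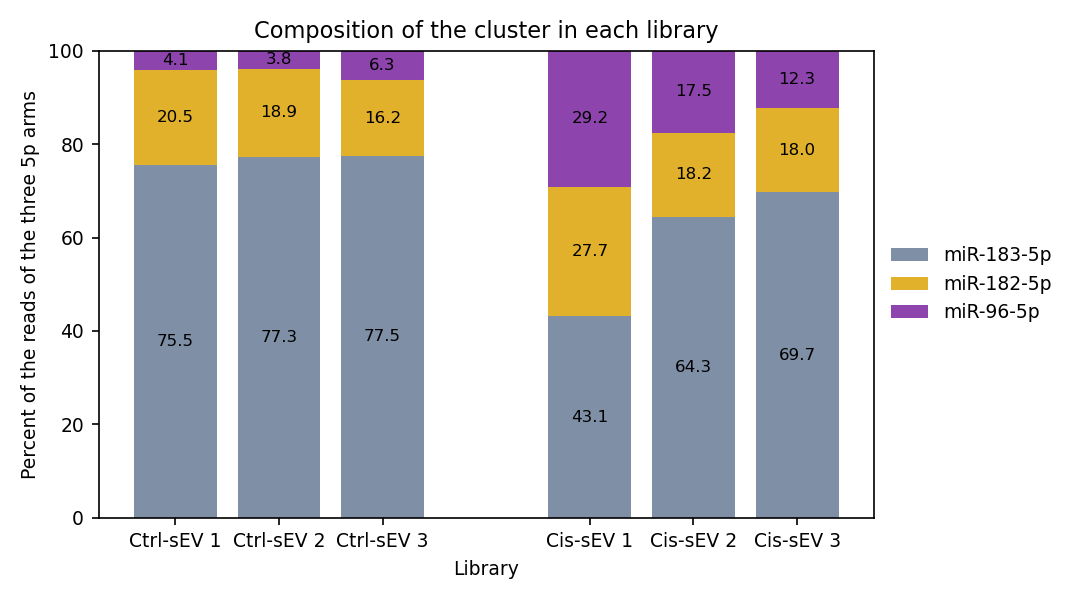
Share of miR-183-5p, miR-182-5p and miR-96-5p in the summed reads of these 5p arms, in percent, for each library. miR-96-5p takes 12.3% to 29.2% in the Cis-sEV bars and 3.85% to 6.31% in the Ctrl-sEV bars.

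There were 0.677, 0.272 and 0.177 reads of miR-96-5p per read of miR-183-5p in the Cis-sEV libraries, against 0.0540, 0.0498 and 0.0814 in the Ctrl-sEV libraries. The lowest Cis-sEV library was 2.17 times the highest Ctrl-sEV library, and the means differed 6.08-fold, or 3.64-fold without Cis-sEV 1. Per read of miR-182-5p there were 1.05, 0.964 and 0.684 reads of miR-96-5p in Cis-sEV and 0.199, 0.204 and 0.390 in Ctrl-sEV. The means differed 3.41-fold, and 3.12-fold without Cis-sEV 1. The ratio of miR-182-5p to miR-183-5p was 0.642, 0.282 and 0.259 in Cis-sEV and 0.271, 0.244 and 0.209 in Ctrl-sEV, and the groups overlapped.

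Whether the arms of a genomic cluster changed unequally was tested with edgeR's diffSpliceDGE over the main arms of hairpins within 10 kb of each other on the same strand, a test chosen after the data were seen. The locus of miR-183, miR-96 and miR-182 was called (F = 13.9, adjusted p = 0.0019), on rank 5 by unadjusted p of 23 loci with at least 2 tested hairpins, of which 43.5% were called. Among its arms miR-96-5p changed more than the others, by 1.48 on the log2 scale relative to the locus (adjusted p = 0.00528 in edgeR over all arms in loci). The relative changes were 0.17 for miR-182-5p (edgeR adjusted p = 0.992) and -0.29 for miR-183-5p (edgeR adjusted p = 0.970). The locus was called in the same test without any 1 of the 6 libraries, with adjusted p-values from 0.00108 to 0.0177.

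The 3p arms, the arms that are usually degraded, were present at 10.6 to 31.8 CPM in Cis-sEV. miR-96-3p had 25, 46 and 49 reads with cisplatin and 0 in each Ctrl-sEV library, and was at least 10.7-fold higher in Cis-sEV with 3 reads over the Ctrl-sEV group as its floor (edgeR adjusted p = 0.00549), or at least 5.97-fold without Ctrl-sEV 2. miR-182-3p had 55, 30 and 19 reads in Cis-sEV and 0 in each Ctrl-sEV library, and was at least 9.31-fold higher (edgeR adjusted p = 0.00569), or at least 5.18-fold without Ctrl-sEV 2. Both arms passed the filter on low counts only through Cis-sEV, the group where they were high, so these p-values are no independent support for a difference. The lower bounds on the folds cover counting error only. They do not cover the spread between libraries, which was far above the sampling noise of reads. For these 2 arms the groups were apart. DESeq2 did not call either (adjusted p = 0.0571 for miR-96-3p and 0.0823 for miR-182-3p), and neither did limma-voom (0.0766 and 0.0889), while limma-voom with group weights called both (0.00173 and 0.00293).

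miR-183-3p had 57, 26 and 23 reads in Cis-sEV and 0, 81 and 0 in Ctrl-sEV. Ctrl-sEV 2 was the highest of the 6 libraries and the other 2 Ctrl-sEV libraries the lowest, so the groups overlapped (log2 fold change -1.09, SE 2.01, edgeR adjusted p = 0.770). The sign rests on Ctrl-sEV 2: without it miR-183-3p was at least 5.27-fold higher in Cis-sEV by the same floor (edgeR adjusted p = 0.0395). The 81 reads in Ctrl-sEV 2 show that 0 reads in some Ctrl-sEV libraries did not bound the level in another. Both remaining Ctrl-sEV libraries were then at 0, so the arm passed the filter only through Cis-sEV. This p is therefore no independent support for a difference.

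Zero counts in Ctrl-sEV were common at the level of these arms. Of 104 tested miRNAs with a Cis-sEV mean of 10 to 40 CPM, a range chosen after the 3p arms had been seen, 39 (37.5%) had 0 reads in all 3 Ctrl-sEV libraries, 31 had reads in 1, 20 in 2 and 14 in all 3. Where such a miRNA was present in a Ctrl-sEV library, its median count was 40 reads. The 104 include the 3 3p arms of the cluster. Of the 104, 45 (43.3%) were called higher in Cis-sEV, among them 2 of the 3 3p arms. The part of this all-or-none pattern in the values of the 3p arms was not tested.

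**Figure D3:**
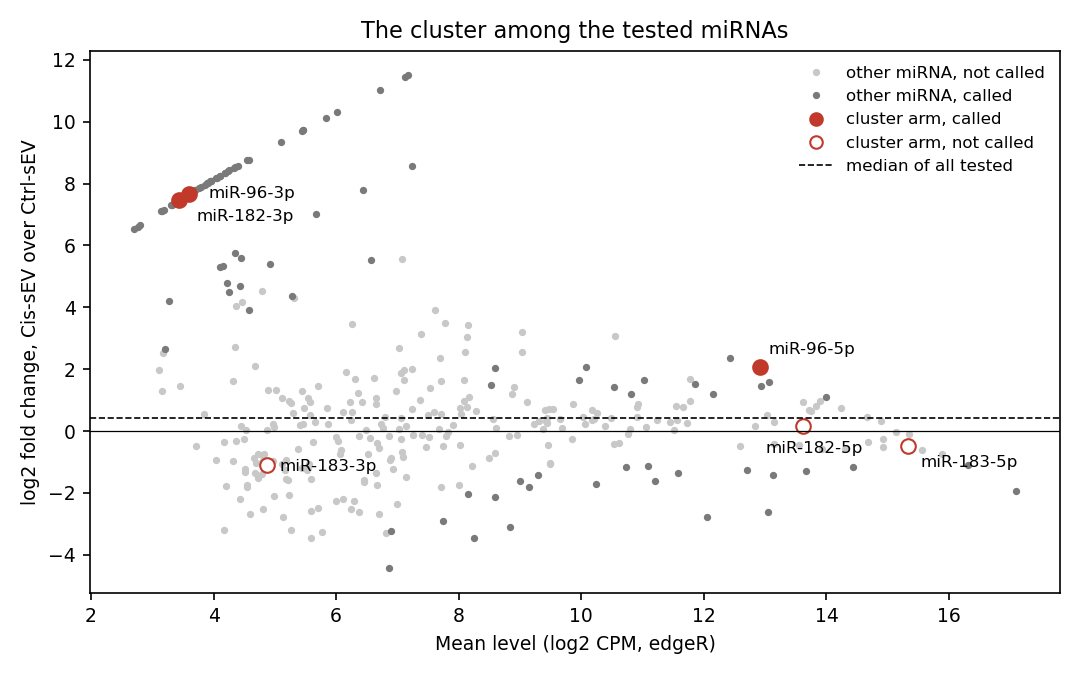
log2 fold change of Cis-sEV over Ctrl-sEV against mean level (log2 CPM) for the 353 tested miRNAs, with the cluster in red and the median of all, 0.44, as a dashed line. miR-96-5p stands at 2.08 among abundant miRNAs, miR-182-5p at 0.18 and miR-183-5p at -0.49. miR-96-3p and miR-182-3p lie on the upper left line of miRNAs with 0 Ctrl-sEV reads, whose fitted height depends on edgeR's prior count and is no measured fold.

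All 6 arms passed the filter on low counts, which kept 353 miRNAs. A call needed an adjusted p no larger than 0.05 together with a log2 fold change of 1 or more in either direction. By that rule 3 of the 6 were called higher, beside 23.5% of all tested miRNAs, and 0 were called lower, beside 6.52%. Since miR-96-3p and miR-182-3p entered the test only through Cis-sEV, nothing is read from this count, and miR-96-5p is the 1 called arm with reads in both groups. Of all miRNAs tested, 147 had an unadjusted edgeR p below 0.05. After TMM scaling, every Cis-sEV library exceeded every Ctrl-sEV library for miR-96-5p, miR-96-3p and miR-182-3p, as for 37.7% of all tested miRNAs. The median log2 fold change of all tested miRNAs was 0.44, and it was 0.80 with total counts, 0.33 with DESeq2 size factors and 0.22 with upper-quartile factors. Relative to that median miR-96-5p was higher and miR-183-5p lower under each of these scalings. Among 76 tested miRNAs with a mean of at least 1000 CPM, 12 (15.8%) were called higher, and miR-96-5p was on rank 3 by log2 fold change, miR-182-5p on rank 42 and miR-183-5p on rank 57.

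The 5p arm was the main arm of each hairpin in every library. For mir-182 the 3p arm made up 0.136%, 0.152% and 0.0994% of the hairpin's reads in the Cis-sEV libraries (95% Clopper-Pearson intervals 0.102% to 0.177%, 0.102% to 0.216% and 0.0599% to 0.155%). It made up 0 of 18415 reads in Ctrl-sEV, which allows a share of up to 0.0163%. All 3 Cis-sEV libraries were above that limit, which covers counting error only. At the pooled Cis-sEV share of each hairpin, Ctrl-sEV would have held 24.1 reads of miR-182-3p, 7.38 of miR-96-3p and 39.1 of miR-183-3p. Against these, 0, 0 and 81 were counted. The expected counts take reads as independent, while all 81 reads of miR-183-3p were in Ctrl-sEV 2. miR-182-3p and miR-96-3p passed the filter only through Cis-sEV. Their zeros are therefore no independent support for a changed share.

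For mir-96 the 3p arm made up 0.0586%, 0.241% and 0.374% in Cis-sEV, a spread over which the intervals of Cis-sEV 1 (0.0379% to 0.0865%) and Cis-sEV 3 (0.277% to 0.494%) did not meet. It made up 0 of 4602 reads in Ctrl-sEV, which allows up to 0.0652%, more than the share in Cis-sEV 1. The 0 reads in Ctrl-sEV therefore did not exclude the share found in Cis-sEV 1. Cis-sEV 1 had the most reads of miR-96-5p and the fewest of miR-96-3p among the Cis-sEV libraries.

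For mir-183 the 3p arm made up 0.0904%, 0.0371% and 0.0311% in Cis-sEV and 0%, 0.261% and 0% in Ctrl-sEV, so that the groups overlapped. The 2 Ctrl-sEV libraries at 0 allow up to 0.0132% and 0.0133%, below each Cis-sEV library.

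Arm usage was tested with diffSpliceDGE over the 59 hairpins with both arms tested, of which 20.3% were called. The change of the 3p arm relative to the 5p arm was called for mir-182 (edgeR adjusted p = 0.0224) and was not called for mir-96 (0.0754) and mir-183 (0.822). mir-182 and mir-96 were among the tested hairpins only because Cis-sEV carried their 3p arms past the filter. Their p-values are therefore no independent support for a change in arm usage. miR-183-3p had reads in Ctrl-sEV 2 alone of the Ctrl-sEV libraries, so it too needed Cis-sEV to pass. mir-182 could not be tested without Cis-sEV 1 or Cis-sEV 2 or with a minimum of 50 reads. Without Ctrl-sEV 2 the adjusted p of mir-182 was 0.0622 and that of mir-183 was 0.0115. In that setting miR-183-3p too passed the filter only through Cis-sEV, so this p is no independent support. Exact permutation tests of the 3p share over the 6 libraries gave 0.1 for mir-182, 0.1 for mir-96 and 1 for mir-183, with 0.1 the smallest possible.

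**Figure D4:**
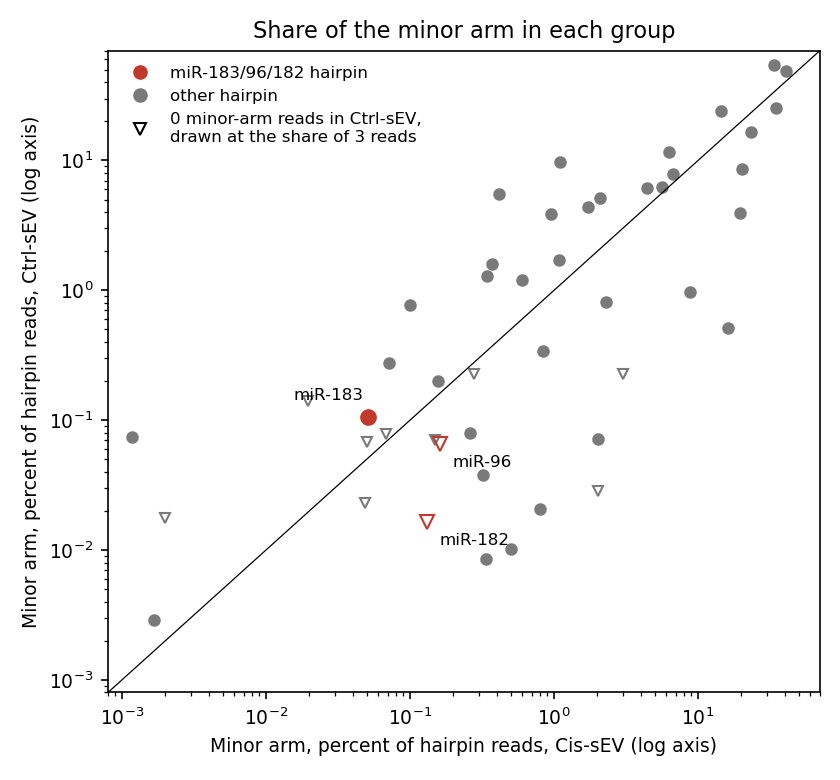
Share of the minor arm in the reads of each hairpin, in percent (log axes), in Cis-sEV against Ctrl-sEV, for 47 hairpins with at least 1000 reads in each group. Open triangles mark hairpins with 0 minor-arm reads in Ctrl-sEV, drawn at the share of 3 reads, mir-96 and mir-182 among them, and the line marks equal shares.

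Other hairpins give the scale for these shares. Among the 47 hairpins with at least 1000 reads in each group, the minor arm held a median of 0.80% in Cis-sEV and 0.511% in Ctrl-sEV. It was higher in Cis-sEV in 25 of the 47 and had 0 reads in Ctrl-sEV in 11. Ordered from the largest minor arm share in Cis-sEV, mir-96 was on rank 34, mir-182 on rank 37 and mir-183 on rank 41, so their 3p arms were scarce beside those of most hairpins.

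The miRNAs most like the cluster were found by Pearson correlation of log2(CPM + 1) over the 6 libraries. For the summed cluster these were miR-212-5p (r = 0.894), miR-219a-1-3p (r = 0.857) and a predicted miRNA (r = 0.855). miR-212-5p had 130, 30 and 19 reads in Cis-sEV and 0 in each Ctrl-sEV library, and miR-219a-1-3p had 52, 15 and 17 reads against 0. Both were highest in Cis-sEV 1, as the cluster was. For the summed 3p arms these were miR-203b-5p (r = 0.998), miR-152-3p (r = 0.998) and miR-199b-5p (r = 0.997). Their reads in Ctrl-sEV were 0, 66 and 0 for miR-203b-5p, 0, 107 and 0 for miR-152-3p, and 0, 51 and 0 for miR-199b-5p, the same libraries at 0 as for miR-183-3p. These values share the libraries and their depth and are given as a description.

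Of 15 other miRNAs known from the inner ear, all tested, 6 were called higher in Cis-sEV (23.5% of all tested miRNAs were), 0 lower (6.52% of all) and 9 were not called, with a median log2 fold change of 1.07 beside 0.44 over all miRNAs. Before TMM scaling, their summed level ran from 88088 to 92323 CPM with cisplatin, against 43134 to 51080 CPM without. The most abundant were miR-429-3p, an epithelial miRNA of the miR-200 family (log2 fold change 0.34, edgeR adjusted p = 0.10), and miR-99a-5p (0.45, edgeR adjusted p = 0.0710), neither of which was called. miR-34a-5p, which p53 induces, had a log2 fold change of 2.36 (SE 0.29, edgeR adjusted p = 0.00502) and miR-200a-3p of 1.21 (SE 0.28, edgeR adjusted p = 0.0164). Both were higher in Cis-sEV. The 15 were listed with earlier results of these data known. Among the 6 called higher, miR-34a-5p, miR-140-5p and miR-124-3p are miRNAs that the paper selected from these data as enriched in Cis-sEV. miR-124-3p had 0 reads in each Ctrl-sEV library and passed the filter only through Cis-sEV. The choice of list thus partly fixed the count and the median, so neither is independent support for a change of inner ear miRNAs.

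The 5p arms of the cluster were also the marker list for hair cells, and all 3 were present in every library, with a summed level of 59073 to 81525 CPM with cisplatin and 54984 to 55757 CPM without, a gap that TMM scaling removed, as given above. Calls among the markers of other cell types are to be read beside the 23.5% of all miRNAs called higher and the 6.52% called lower. Sums of the other lists below are in CPM without TMM scaling, and the sums were not compared after it. The 7 epithelial miRNAs summed to 46822 to 49972 CPM with cisplatin and 23533 to 32113 CPM without, with 2 called higher. The 6 neuronal miRNAs summed to 2548 to 2817 and 1200 to 1585 CPM, with 1 called higher. That 1 was miR-124-3p, at 0 in Ctrl-sEV, which passed the filter only through Cis-sEV. The 5 mesenchymal miRNAs summed to 6062 to 9821 and 3018 to 5307 CPM, with 0 called. Endothelial miRNAs summed to 6915 to 9947 CPM with cisplatin and 14595 to 18602 CPM without, with miR-126a-3p called lower. That sum is nearly all miR-126a-3p, and miR-126a-5p had a log2 fold change of 4.17 (edgeR adjusted p = 0.0759). Of 4 erythrocyte miRNAs 2 were tested and both were called lower, with sums of 1153 to 1306 and 1509 to 3330 CPM. Of 5 leukocyte miRNAs 2 were tested and 0 called, with sums of 2180 to 2210 and 1908 to 2040 CPM. The part of these cell types in the values of the cluster was not tested.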

How the data were processed

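The authors cut RNA of miRNA length from a gel, sequenced it by DNBSEQ, used Bowtie2 to place the reads on GRCm38.p6 and deposited whole-number counts per mature miRNA, without normalization. The authors' mean signal per group was also deposited and was not used. No sample column was left out.

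Counts were tested with edgeR 4.0.16 in R 4.3.3: TMM factors, filterByExpr (10 reads, 15 in total), the quasi-likelihood F test and Benjamini-Hochberg adjustment over all tested miRNAs. Calls needed an adjusted p of 0.05 or less and a log2 fold change of 1 or more in either direction. Arm usage was tested with diffSpliceDGE, with the hairpin as the gene. Single values were tested by exact two-sided permutation over libraries. Alternatives used DESeq2 1.42.0 and limma 3.58.1, and scripts were tested on simulated data.

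The members and lists were chosen with earlier results of these data known. Named beside the members were the miRNAs next in order, the 3 most correlated and the 4 most abundant of the inner ear list. The test over genomic loci and the comparisons by abundance were chosen after seeing the data. Library totals, 528952 to 1794175 reads, set the precision.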

Additional observations from a re-analysis of the deposited data

How the results depend on the processing

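The direction of miR-96-5p was the same in all 18 alternatives run, with log2 fold changes from 1.34 to 2.50, but it was not called with limma-voom (adjusted p = 0.128, or 0.367 with group weights). Of the 6 arms, 1 was called with DESeq2 and 0 with limma-voom, which had 43 calls over all miRNAs where edgeR had 106. Over all miRNAs there were 76 calls with no filter, 51 with the minimum of 50 reads and 53 to 169 when each library was left out in turn. A minimum of 50 reads left only the 3 5p arms to test, of which 1 was called, and left no hairpin of the cluster to test, so that the count of 0 hairpins is fixed by the filter. Without 1 library, 2 to 3 arms and 0 to 1 hairpins were called. The log2 fold change of miR-182-5p, from -0.40 to 0.49 without 1 library, turned with upper-quartile factors (-0.0479). That of miR-183-3p ran from -1.87 to 7.63 without 1 library, and turned with limma-voom (2.72) and with group weights (2.14). The upper end of that range is a fitted value with both remaining Ctrl-sEV libraries at 0. It is no measured fold (at least 5.27-fold by counting error alone). The arm usage of mir-183 ran from -0.90 to 5.61 without 1 library, with the upper end fitted against the same zeros. Its 3p share differed by -0.0776 to 0.0529 percentage points without 1 library, and by 2.14 as a log2 ratio of reads plus 0.5. Within the cluster, the share of miR-183-3p differed by -0.0727 to 0.0282 and that of miR-182-5p by -0.417 to 4.41 percentage points without 1 library. The cause was not tested. miR-182-3p was not tested without Cis-sEV 1 or Cis-sEV 2. The locus test was called in all 10 alternatives run.

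With the replicate number as a block (replicate block), 1 arm, 0 hairpins and 24 miRNAs over all were called, miR-183-3p had a log2 fold change of 3.49 and mir-183 an arm usage of 2.75, both turned, and the locus had an adjusted p of 0.0121. The labels give same-numbered libraries nothing else in common, and their deviations from the group means correlated at -0.0486, -0.175 and -0.0159. Libraries of unlike number correlated at -0.120 to 0.162. So few values cannot tell whether the numbers pair the libraries, which stays unknown. At the depth of mir-96 in Ctrl-sEV, 0 reads did not exclude a 3p share of up to 0.0652%, by counting error alone.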
